A study of Homo sapiens with 7 samples.

Results

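The 10 genes described here are AP-1 transcription factors and 3 relatives from the same superfamily, namely the FOS group (FOS, FOSB, FOSL1 and FOSL2), the JUN group (JUN, JUNB and JUND), and BATF3, MAFF and MAFK. They were picked by gene symbol, and all 10 of them were found among the 21305 genes measured. RNA was sequenced from 501Mel, a human melanoma line with a pigment cell character, in 7 libraries. All cells were stably transduced pools that carried a short hairpin RNA switched on by doxycycline, and every library, controls included, came from cells induced for 3 days. The control hairpin against the bacterial gene lacZ (shlacZ) had 3 libraries, and the hairpins sh4 and sh8, both against the long non-coding RNA GRASLND, had 2 each.

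AP-1 is a dimer of basic leucine zipper proteins. FOS proteins do not pair stably with themselves and bind DNA as partners of JUN proteins, whereas JUN proteins also pair with each other. BATF3 lacks a transactivation domain of its own and pairs with JUN proteins, and the small MAF proteins MAFF and MAFK likewise lack one and pair with factors such as NFE2L2 or BACH1. FOS, FOSB, JUN and JUNB are immediate early genes, whose transcripts rise and decay quickly after growth factor or stress signals. In melanoma, AP-1 activity is known for its link with states that have lost pigment cell features.

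GRASLND was measured first as the target of both hairpins. Normalized counts of 309, 329.9 and 289.7 in shlacZ compared with 175 and 131 in sh4 and with 227 and 163 in sh8, so that every knockdown library lay below every control library. The fall passed the test for sh4 (log2 fold change −1.02, SE 0.21, adjusted p = 0.00662, limma) and not for sh8 (−0.68, SE 0.21, adjusted p = 0.110), and sh4 and sh8 did not differ by the test (−0.34, adjusted p = 0.421). Without the second sh4 library the value for sh4 was −0.82 (adjusted p = 0.0774). The depth was 13337317 to 22855232 reads per library. The first shlacZ library stood farther from the other control libraries (mean chi-square per gene at least 30.9) than these did from each other (9.32), so values without it are given where they change a call. The 7 melanocyte markers were all measured. Their summed level was 135575 to 146343 in shlacZ, 51868 to 59737 in sh4 and 101544 to 104484 in sh8. In sh4, MITF, SOX10, PMEL, MLANA, TYRP1 and DCT were below every control library. In sh8, SOX10, PMEL, MLANA, TYRP1 and DCT were below every control library, and MITF lay inside the control range. TYR did not fall, at 8192 to 9420 in shlacZ, 10288 and 9183 in sh4, and 9200 and 11314 in sh8. Of the markers of other cell types, 1 of 4 for keratinocytes (sum 1.13 to 13.7) and 2 of 5 for fibroblasts (6.28 to 19.4) could be measured. Of 5 leukocyte markers LYZ and CD68 could be measured. Their sum was 498 to 675 in shlacZ, 914 to 933 in sh4 and 573 to 678 in sh8. KRT5, KRT14, KRT1, COL3A1, DCN, LUM, PTPRC and CD3E were not found by symbol among the genes measured. LYZ was at 0 to 4.19 in shlacZ, 337 and 492 in sh4 and 5.27 and 7.28 in sh8. These markers move with several results below, and their part in those results was not tested. In bulk RNA, fewer cells of a type and less RNA per cell cannot be told apart.

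Of the 10 genes, FOSL2 was higher and MAFF lower in sh4 than in the control, no gene passed the test in sh8, and MAFF differed between the hairpins. All 10 had a mean normalized count of at least 10 and were tested together with 15420 genes in total, on log2(normalized count + 1), with p-values adjusted over all of them. In sh4, 2 of 10 passed at an adjusted p under 0.05, against 22.5% of all genes tested. There was 1 higher, against 10.5% of all genes, and 1 lower, against 11.9%. With the additional demand of an absolute log2 fold change over 1, FOSL2 alone was called, against 8.16% of all genes. By limma-voom on whole reads 3 of 10 passed in sh4, the additional gene being FOSB (1.42, adjusted p = 0.0447, range over the alternatives 0.00775 to 0.401). In sh8, 0 of 10 passed by limma, against 2.92%, and 2 of 10 (FOSL2 and JUND) had an unadjusted p under 0.05. By limma-voom on whole reads the count in sh8 was also 0. Between sh4 and sh8, 1 of 10 passed, against 7%. With both hairpins pooled, 0 of 10 passed by limma and by limma-voom, against 4.61%, and again 2 had an unadjusted p under 0.05. The shares called among the 10 genes in sh4 and between the hairpins were thus near those of all genes. The median log2 fold change was 0.32 in sh4, −0.04 in sh8, 0.35 for sh4 against sh8 and 0.10 for both hairpins, beside −0.01 over all genes in each of these comparisons. Each hairpin was compared with the same 3 control libraries.

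**Figure D1:**
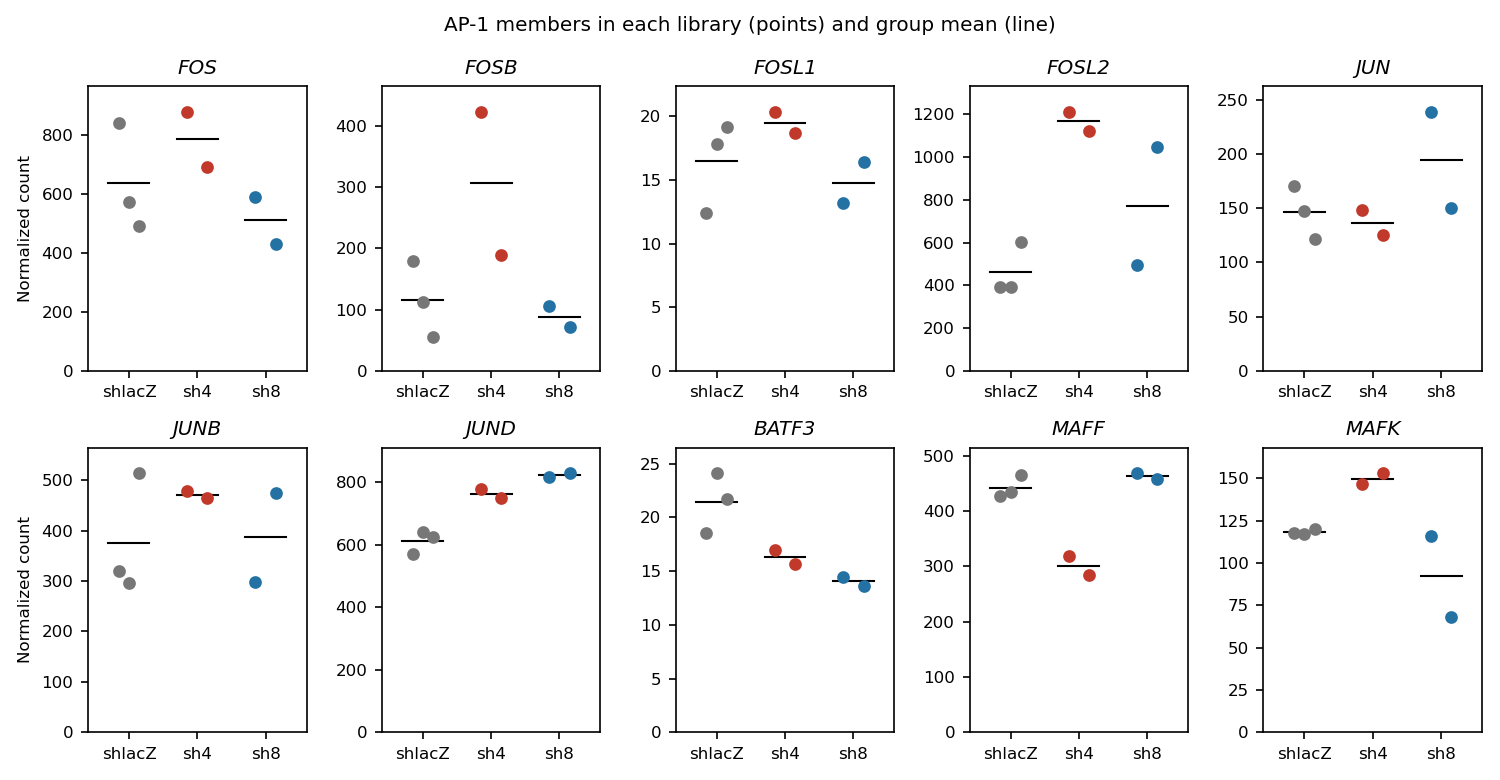
Normalized count (vertical axis, linear from 0, separate scale per gene) of the 10 genes in each of the 7 libraries, with points for libraries and lines for group means. Both sh4 libraries lie above all shlacZ libraries for FOSL2 and below them for MAFF, and the sh8 libraries of FOSL2 lie far apart at 493 and 1047.

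Counted by whether libraries overlapped, 6 of 10 genes had both sh4 libraries outside the control range, against 50.6% of all genes. These were FOSB, FOSL2, JUND and MAFK above, and BATF3 and MAFF below. In sh8, 3 of 10 did so, against 34.4%, with JUND above and BATF3 and MAFK below. All 4 knockdown libraries lay outside the control range for JUND, above it, and BATF3, below it, which is 2 of 10 against 21.2%. The sh4 and sh8 libraries did not overlap for 9 of 10 genes, JUNB being the exception, against 54.2% of all genes. MAFK stood above the control in sh4 and below it in sh8, where the first library (116) was just under the lowest control library (117). Neither difference of MAFK from the control passed the test.

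**Figure D2:**
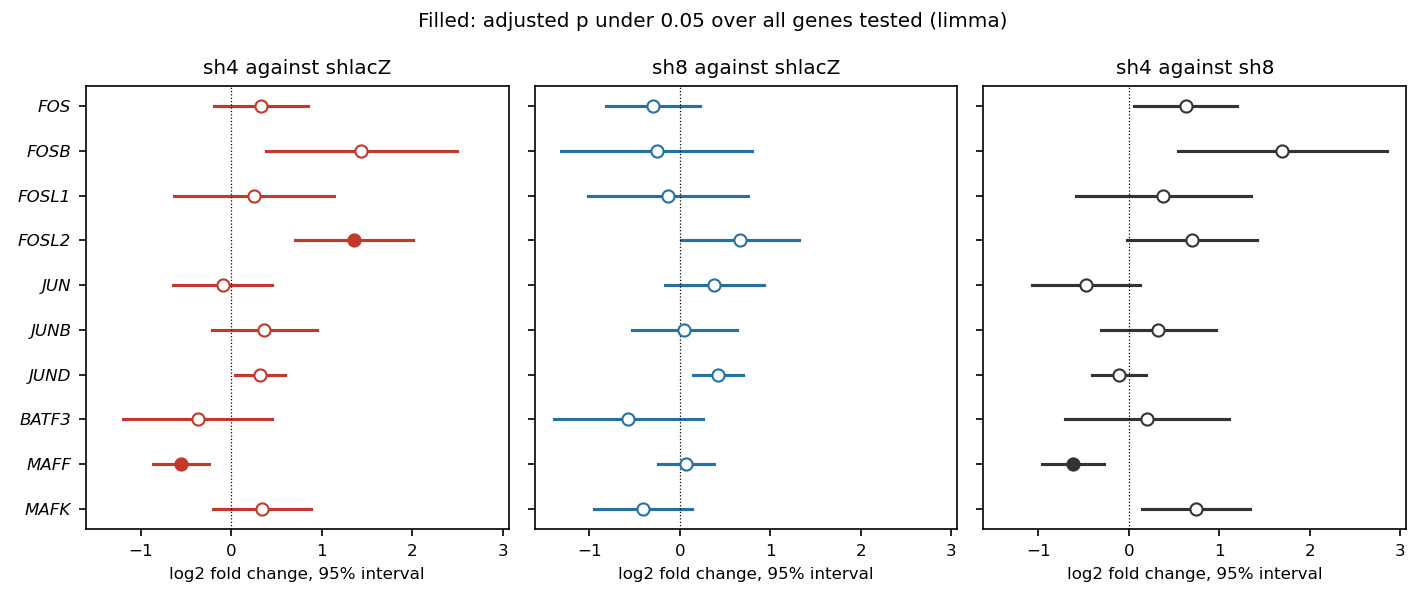
Log2 fold change (horizontal axis) of each gene with its 95% interval in 3 comparisons, filled where the adjusted p over all genes tested was under 0.05. FOSL2 (1.36) and MAFF (−0.55) are filled for sh4 against shlacZ, no gene is filled for sh8 against shlacZ, and MAFF (−0.62) is filled for sh4 against sh8.

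FOSL2, which encodes the FOS-related protein FRA2, was the only gene of the 10 whose rise passed the test. FOSL2 (ENSG00000075426) lies on the plus strand of chromosome 2, from 28392448 to 28417317 in hg38, with 4 exons in its canonical transcript. Its normalized count was 393, 393 and 605 in shlacZ, 1211 and 1123 in sh4, and 493 and 1047 in sh8. Both sh4 libraries were above every control library, whereas the first sh8 library lay inside the control range and the second lay above it. The group means were 464 ± 122 (SD, n = 3), 1167 ± 62.3 (n = 2) and 770 ± 391 (n = 2). This made the sh4 mean 2.52-fold and the sh8 mean 1.66-fold the control mean.

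In the test of FOSL2, sh4 exceeded shlacZ by 1.36 on the log2 scale (SE 0.29, 95% interval 0.71 to 2.01, adjusted p = 0.00925, limma). For sh8 the difference was 0.66 (interval 0.01 to 1.31, adjusted p = 0.262), and sh4 against sh8 missed the threshold (0.70, interval −0.02 to 1.41, adjusted p = 0.231). Both values rest on single sh8 libraries. Without the first, sh8 against shlacZ was 1.20 and sh4 against sh8 was 0.16, and without the second they were 0.12 and 1.24, with no call in any of the 17 alternatives (adjusted p 0.0858 to 0.877 and 0.0536 to 0.848). The rise in sh4 is therefore not shown to differ from the value in sh8. Over 17 alternatives the sh4 value ranged from 1.26 to 1.57, and it passed in 15 of them (adjusted p 0.00163 to 0.0792). It was lost when either the first (adjusted p = 0.0792) or the second sh4 library (0.0641) was left out, with the lone sh4 library then assumed to vary like the other groups. With both hairpins together the difference was 1.01 (SE 0.30, adjusted p = 0.0802), and without the first sh8 library it was 1.31 (adjusted p = 0.00732, range over 16 alternatives 0.00732 to 0.280). In that first sh8 library GRASLND was at 227, the highest of the 4 knockdown libraries. In the sh4 libraries, where FOSL2 was highest, the summed melanocyte markers were lowest (51868 to 59737) and LYZ was highest, and their part in this result was not tested.

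The promoter window of FOSL2 held the classical AP-1 site, and it is printed because FOSL2 was the gene of the FOS group that rose. Windows of 300 bases, from 250 before to 50 after the start, were taken from RefSeq (GRCh38.p14), and 7 of the 10 genes matched, MAFF with 2 starts. FOSL1, BATF3 and MAFK had no entry. The AP-1 site, TGACTCA or TGAGTCA on either strand, occurred in 1 of these 8 windows and in 4.95% of all 35116 windows. In FOSL2 it took bases 5 to 11 counted from the RefSeq start, on the plus strand, within chr2:28392850-28392879, with the site in capitals. The motifs were chosen with these windows in view, so a match is a description only.
FOSL2: gtgccattgtagTGACTCAtctcgggcaga

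FOS, the namesake of the group, did not pass in any comparison. Its normalized count was 841, 573 and 492 in shlacZ, 878 and 692 in sh4, and 588 and 431 in sh8. The control and sh4 libraries overlapped, as did the control and sh8 libraries, while both sh4 libraries exceeded both sh8 libraries. The log2 difference was 0.33 for sh4 (SE 0.23, adjusted p = 0.342), −0.30 for sh8 (adjusted p = 0.538) and 0.63 for sh4 against sh8 (interval 0.06 to 1.20, adjusted p = 0.179). Without the first shlacZ library FOS passed in sh4 (0.55, adjusted p = 0.0422) and between the hairpins (adjusted p = 0.0485), with ranges over the alternatives of 0.0422 to 0.801 and 0.0281 to 0.549.

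FOSB, a second immediate early FOS gene, had a log2 difference of similar size to that of FOSL2 in sh4 and missed the threshold. Its normalized count was 179.6, 113 and 54.8 in shlacZ, 422 and 189.6 in sh4, and 105 and 71.0 in sh8. Both sh4 libraries were above the control libraries, the second of them by a small margin, and the control libraries themselves spread widely. The difference was 1.44 for sh4 (SE 0.47, interval 0.38 to 2.49, adjusted p = 0.0538), −0.26 for sh8 (adjusted p = 0.818) and 1.70 for sh4 against sh8 (SE 0.52, adjusted p = 0.0799). FOSB passed in sh4 in 3 of 17 alternatives (adjusted p 0.00775 to 0.401), among them the fit without the first shlacZ library (1.83, adjusted p = 0.00775). The value fell to 0.86 without the first sh4 library (adjusted p = 0.401) and to 0.98 without the third shlacZ library (0.115), and it was 2.01 without the second sh4 library (0.0629). Between the hairpins it passed in 4 of 17 (0.00224 to 0.404). These included the fits without the first shlacZ library (adjusted p = 0.0241) and without the third (0.0314).

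FOS, FOSB and JUN were each highest in the library numbered 1 of every group. The labels tie these numbers to no shared day or batch. FOS and FOSB, which are known as targets of the same growth factor signals, had the closest levels over the libraries of any pair of the 10 genes (Pearson r = 0.91 over 7 libraries, as a description, with the 3 groups pooled). The windows of both held the short CRE core, TGACG or CGTCA, 64 bases before the start in FOS and 60 bases before it in FOSB. This core occurred in 7 of the 8 windows and in 24.6% of all windows, which makes it a common match. The whole CRE always contains it. The windows below are chr14:75278751-75278780 and chr19:45467923-45467952, both on the plus strand, with the core in capitals.
FOS: gtggttgagcccgTGACGtttacactcatt
FOSB: agcaaggggcgggTGACGtaagcagggggg

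FOSL1, which encodes FRA1 and is known as a marker of dedifferentiated melanoma, had few reads in these data. It was measured at 12.4, 17.8 and 19.1 in shlacZ, 20.3 and 18.7 in sh4, and 13.2 and 16.4 in sh8, from 10 to 25 reads per library. The log2 difference was 0.25 in sh4 (interval −0.63 to 1.14, adjusted p = 0.697) and −0.13 in sh8 (interval −1.01 to 0.75, adjusted p = 0.895). At this depth, differences inside these intervals could not be told from 0. The 5 other genes with the most similar levels over the 7 libraries, among 12042 compared, were RHOG, GNB2, IRF2BP1, CST3 and KDM2A, with Pearson r from 0.976 to 0.985. As the highest of 12042 values over 7 libraries with groups pooled, these r are high by selection and are a description only.

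JUND had higher values in every knockdown library than in any control library, without passing the test. It is the JUN gene that is expressed at a steady level in many cell types. JUND was measured at 570.7, 641 and 625 in shlacZ, 776 and 748 in sh4, and 815 and 827 in sh8. The lowest knockdown library (748) stood above the highest control library (641), and replicates of each hairpin were close to each other. The log2 difference was 0.32 for sh4 (SE 0.12, adjusted p = 0.0935), 0.42 for sh8 (SE 0.12, adjusted p = 0.101) and 0.37 for both together (SE 0.12, adjusted p = 0.0906). JUND passed in none of the 17 alternatives for sh4 (lowest adjusted p 0.0501) or for sh8 (0.0585), nor in the 16 for both hairpins (0.0647).

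JUN, the founding member of its group, and JUNB, which is often opposed to it in growth control, showed no difference that passed. JUN was at 170.3, 148 and 122 in shlacZ, 148 and 125 in sh4, and 239 and 150.2 in sh8. Only the first sh8 library was above the control range. JUNB was at 319.9, 295 and 513 in shlacZ, 478 and 464 in sh4, and 298 and 475 in sh8. For JUNB the libraries of all groups overlapped. The log2 difference of JUN was −0.09 in sh4 (interval −0.64 to 0.46, adjusted p = 0.828) and 0.38 in sh8 (interval −0.17 to 0.93, adjusted p = 0.453). For JUNB it was 0.37 in sh4 (interval −0.21 to 0.95, adjusted p = 0.344) and 0.04 in sh8 (interval −0.54 to 0.62, adjusted p = 0.949). Over the libraries JUNB levels went with those of FOSL2 (r = 0.81 over 7 libraries, groups pooled), both being lower in the first than in the second sh8 library and highest in the third among the controls. Of the 5 other genes most like JUN over the 7 libraries, 4 had no symbol, among them ENSG00000288995 (r = 0.978) and ENSG00000279801 (r = 0.975), and the fifth was LRRFIP2 (r = 0.955). These r too are the highest of 12042 values, high by selection, and a description only.

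Windows of JUN and JUND are shown because they hold longer AP-1 and CRE type sites. The CRE, TGACGTCA, occurred in 2 of the 8 windows, JUND and the first MAFF window, and in 1.85% of all windows. It lay 200 bases before the JUND start. The AP-1 variant TGACATCA, on either strand, occurred in the JUN window alone among the 8, 67 bases before the start, and in 2.61% of all windows. The stretches are chr1:58784096-58784125 for JUN and chr19:18281804-18281833 for JUND, both read on the minus strand, with the site in capitals.
JUN: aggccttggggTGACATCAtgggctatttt
JUND: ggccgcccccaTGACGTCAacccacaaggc

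MAFF, a small MAF protein, fell in sh4 and stayed within or near the control range in sh8. MAFF (ENSG00000185022) lies on the plus strand of chromosome 22, from 38200767 to 38216507 in hg38. Its normalized count was 426, 434 and 465 in shlacZ, 318 and 284 in sh4, and 468 and 458 in sh8. Both sh4 libraries were below every other library, and the sh8 libraries sat at the top of the control range. The means were 442 ± 20.8 (SD, n = 3), 301 ± 24.7 (n = 2) and 463 ± 7.18 (n = 2).

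For MAFF, sh4 was lower than shlacZ by −0.55 on the log2 scale (SE 0.14, interval −0.87 to −0.24, adjusted p = 0.0192, limma), and sh8 differed from shlacZ by 0.07 (interval −0.24 to 0.38, adjusted p = 0.841). The test of sh4 against sh8 itself passed (−0.62, SE 0.15, adjusted p = 0.0395). With both hairpins together the value was −0.24 (adjusted p = 0.477). The sh4 call held in 12 of 17 alternatives (adjusted p 0.0126 to 0.133). It was lost without the first sh4 library (0.0596), the second sh4 library (0.133), the second shlacZ library (0.0510) or the third (0.0794), with the log2 value between −0.64 and −0.47 in all 17. The call between the hairpins held in 10 of 17 (0.0198 to 0.232). It was lost without any 1 of the sh4 or sh8 libraries (0.0935, 0.232, 0.197 and 0.146), and without the second shlacZ library (0.0623) or the third (0.0753). In sh4 the summed melanocyte markers and MAFF were both lowest, and in sh8 the summed markers were below the control while MAFF was not. MITF itself was at 17326 to 22076 in shlacZ, 12619 and 11635 in sh4, and 19031 and 17418 in sh8. The part of these markers in the result for MAFF was not tested.

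The windows of both MAFF starts held an E-box, CACGTG, the sequence read by basic helix-loop-helix factors such as MITF. This E-box occurred in 7.26% of all windows and in no other of the 8 windows searched. It lay 196 bases before the first start and 81 bases before the second, and the first window also held a CRE 54 bases before the start. All 3 stretches are on the plus strand, at chr22:38201929-38201958 for the CRE, and chr22:38201786-38201815 and chr22:38202927-38202956 for the E-boxes. The CArG box, the site of SRF, was in 1.29% of all windows and the core of the Maf recognition element in 0.285%, and neither was in the 8 windows.
MAFF CRE: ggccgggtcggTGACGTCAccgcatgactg
MAFF first start: ctcgcgaggtgtCACGTGaacgcacccagc
MAFF second start: cagggcctccgcCACGTGaccccagtgttt

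MAFK, the other small MAF gene, was at 118, 117 and 120.05 in shlacZ, 147 and 153 in sh4, and 116 and 68.3 in sh8. The control libraries lay within a few counts of each other, the sh4 libraries lay above them, and the second sh8 library lay far below. The log2 difference was 0.34 in sh4 (SE 0.24, adjusted p = 0.354), −0.41 in sh8 (adjusted p = 0.415) and 0.75 for sh4 against sh8 (interval 0.15 to 1.34, adjusted p = 0.131). MAFF and MAFK thus had values of opposite sign in sh4, of which the one of MAFF passed the test.

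BATF3, known for its part in dendritic cell development, was a low gene here. It was at 18.6, 24.1 and 21.7 in shlacZ, 16.9 and 15.7 in sh4, and 14.5 and 13.7 in sh8, from 11 to 25 reads per library. All 4 knockdown libraries were below all control libraries. The log2 difference was −0.37 in sh4 (interval −1.19 to 0.45, adjusted p = 0.515), −0.57 in sh8 (interval −1.39 to 0.26, adjusted p = 0.455) and −0.47 for both (adjusted p = 0.381).

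Several of these genes overlap others. FOSB overlaps ERCC1, JUNB overlaps HOOK2, MAFF overlaps PLA2G6 and MAFK overlaps TMEM184A, each on the opposite strand, and FOSL2 overlaps FOSL2-AS1 on the opposite and ENSG00000270640 on the same strand. The library kit keeps strand, but the strand setting of the counting is not given in the sources used here. PLA2G6 ranged from 214 to 691 and was highest in the first shlacZ library. HOOK2 ranged from 81.7 to 262. ENSG00000270640 reached at most 5.97, small against FOSL2. FOSL2-AS1 and TMEM184A were not found by symbol among the genes measured.

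Per length, JUND was the most abundant and BATF3 the least abundant of the 10 genes in the control. As normalized count per kb of annotated exon, the order in shlacZ was JUND 317 ± 19.1, JUNB 206 ± 65.2, FOS 199 ± 57.3, MAFF 78.7 ± 3.71, FOSL2 64.7 ± 17.1, JUN 40.4 ± 6.70, MAFK 26.5 ± 0.334, FOSB 20.9 ± 11.2, FOSL1 8.71 ± 1.90 and BATF3 8.36 ± 1.08 (SD, n = 3). The neighbours JUNB and FOS, MAFF and FOSL2, MAFK and FOSB, and FOSL1 and BATF3 lay within 1 SD of each other, taking the larger SD of each pair. With the length of the canonical transcript in place of all exons, FOS came before JUNB and BATF3 before FOSL1. The shlacZ means of MAFF and FOSL2 were then 186 and 69.1. The comparisons with MAFF that follow use all exons and may differ with the canonical length. FOSL2 was above MAFF in both sh4 libraries (169 and 157 against 56.8 and 50.5 per kb), whereas in the control it was above MAFF in the third library alone (84.4 against 82.9). FOSB was above MAFF in the first sh4 library (76.1 per kb) and below it in the second (34.1), so their order in sh4 is not settled.

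The FOS group was most abundant in the sh4 libraries. The summed level of FOS, FOSB, FOSL1 and FOSL2 per kb was 358, 264 and 259 in shlacZ, 531 and 418 in sh4, and 279 and 303 in sh8. Both sh4 sums were above all other libraries. FOSL2 made up 15.3%, 20.7% and 32.6% of the group in shlacZ, 31.8% and 37.5% in sh4, and 24.6% and 48.2% in sh8. One of the shlacZ libraries, the third, overlapped with sh4 in this share, so the groups were not separated. With the canonical transcript length the mean FOSL2 share was 17.6%, 27.5% and 29.5%, and without length correction it was 38.3%, 51.7% and 54.0%. FOS itself made up 67.2% ± 7.09 in shlacZ, 51.9% ± 0.0865 in sh4 and 55.4% ± 15.1 in sh8.

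For the JUN group, the sum per kb was 518, 534 and 638 in shlacZ, 704 and 676 in sh4, and 651 and 729.9 in sh8, all 4 knockdown libraries being above the control libraries. JUND made up 56.7% ± 5.72 in shlacZ, 57.2% ± 0.161 in sh4 and 61.8% ± 4.33 in sh8. Among MAFF, MAFK and BATF3, the share of MAFF was 69.3% ± 0.843 in shlacZ, 57.3% ± 2.39 in sh4 and 76.2% ± 5.18 in sh8, and that of MAFK was 23.3% ± 0.667, 35.9% ± 2.49 and 18.8% ± 5.39.

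**Figure D3:**
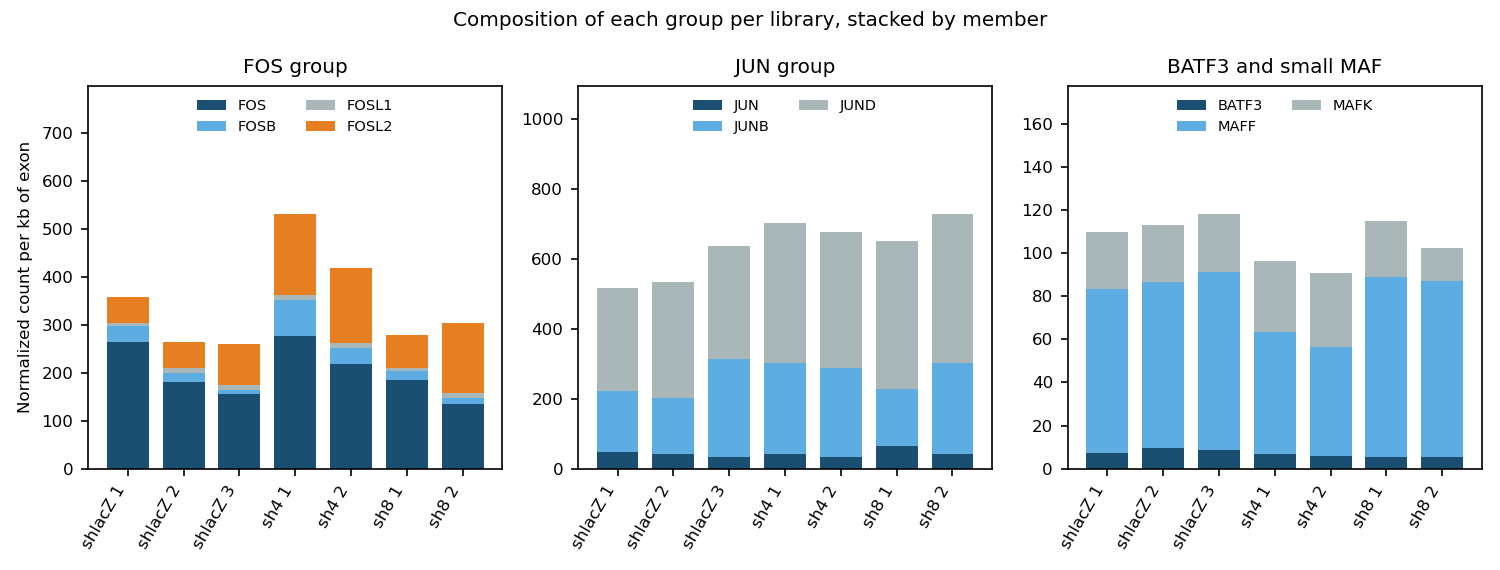
Normalized count per kb of exon (vertical axis, from 0) in each library, stacked by gene, for the FOS group, the JUN group, and BATF3 with the small MAF genes. The FOS group is tallest in the sh4 libraries (531 and 418 per kb), and JUND is the largest part of the JUN group in every library.

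The other lists are read beside the shares of all genes, which were 22.5% called in sh4 (10.5% higher and 11.9% lower), 2.92% in sh8 and 7% between the hairpins. Of 18 other bZIP genes that pair with AP-1 proteins, 13 were tested. Of these 1 was higher in sh4 (ATF7, 0.78, SE 0.17, adjusted p = 0.0112), none passed in sh8 and 1 was lower in sh4 than in sh8 (BACH2, −0.99, SE 0.22, adjusted p = 0.0235). BACH2, a repressor that pairs with small MAF proteins, had means of 407 in shlacZ, 315 in sh4 and 619 in sh8. The list medians were −0.19 in sh4, 0.07 in sh8 and −0.13 between the hairpins. ATF3, a stress-induced partner of JUN, ranged from 61.8 to 74.3 over all libraries (sh4 difference −0.06, adjusted p = 0.884).

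Of 26 kinases and regulators that act upstream of AP-1, 7 were higher (10.5% of all genes were) and 2 lower in sh4 (11.9% were), 0 passed in sh8 (2.92% did), and 2 were higher in sh4 than in sh8. The highest of those named by the rule were ELK3 (1.11, SE 0.15, adjusted p = 0.000998), a ternary complex factor that works with SRF, RPS6KA1 (0.91, SE 0.15, adjusted p = 0.00257), a kinase below ERK, and ELK4 (0.59, SE 0.11, adjusted p = 0.00553). The ERK and JNK pathway kinases MAP2K2 (−0.57, adjusted p = 0.0273) and MAP2K4 (−0.56, adjusted p = 0.0145) were lower. RPS6KA1 (1.04, adjusted p = 0.00627) and ELK3 (0.64, adjusted p = 0.0468) also passed between the hairpins. The list medians were 0.12, −0.01 and 0.08 in sh4, in sh8 and between the hairpins.

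Of 30 other immediate early genes 27 were tested, and 3 were higher and 2 lower in sh4, a share below the 22.5% of all genes called. ZFP36, which promotes mRNA decay (0.99, adjusted p = 0.0350), the nuclear receptor NR4A2 (0.97, adjusted p = 0.00343) and PPP1R15A, a phosphatase subunit of the stress response (0.78, adjusted p = 0.00591), were higher. SGK1 (−0.66, adjusted p = 0.0165) and NR4A3 (−0.62, adjusted p = 0.0170) were lower. In sh8, CCN2 (1.52, adjusted p = 0.0380) and NR4A2 (0.84, adjusted p = 0.0291) were higher. CSRNP1 (2.28, adjusted p = 0.0268) and PPP1R15A (0.63, adjusted p = 0.0497) were higher in sh4 than in sh8. EGR1, which shares its induction with FOS, had −0.13 in sh4 (adjusted p = 0.809) and −0.52 in sh8 (adjusted p = 0.411). The list medians were 0.26, −0.15 and 0.21. SRF stands in this list and in that of the upstream regulators.

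Of 34 known AP-1 target genes, 15 were tested, and 5 were higher and 2 lower in sh4, beside 10.5% and 11.9% of all genes. Of the 5 higher genes, 2 (LAMB3 among them) reached the minimum mean of 10 only through their level in sh4, so that they could hardly be tested without being higher there, and nothing is read from the count or the median of this list. TIMP1, an inhibitor of matrix proteases (1.47, SE 0.20, adjusted p = 0.00109), and TGFB1 (0.52, adjusted p = 0.0439) were higher, and HMGA1 (−0.96, adjusted p = 0.00138) was lower. TGFB1 lost its call without any 1 of the shlacZ libraries, among them the first (0.41, adjusted p = 0.0571). Further calls with means under 50, named after their values were seen, were PLAUR (1.45, adjusted p = 0.0209) and MMP2 (−2.30, adjusted p = 0.00214). LAMB3 was at 0.870 to 1.05 in shlacZ, 23.7 and 38.8 in sh4, and 2.64 and 2.73 in sh8. MMP2 was at 81.5, 40.8 and 44.4 in shlacZ, 10.2 and 9.70 in sh4, and 52.7 and 64.6 in sh8, so the 2 sh4 libraries were the lowest. In sh8 CCND1 alone passed (−0.90, adjusted p = 0.0195). Between the hairpins, TIMP1 (1.41, adjusted p = 0.00649), CCND1 (0.79, adjusted p = 0.0271) and, with the same limit, LAMB3 were higher in sh4 and MMP2 (−2.44, adjusted p = 0.00727) was lower. The list medians were 0.37, 0.03 and 0.35. Targets of AP-1 are also controlled by other factors, and what moved them was not tested.

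Of 14 targets of small MAF dimers and the antioxidant response, 1 was higher and 2 were lower in sh4, a share near the 22.5% of all genes called. The cystine transporter gene SLC7A11 was higher (1.64, SE 0.21, adjusted p = 0.000754), and PIR (−1.86, SE 0.16, adjusted p = 0.00011) and OSGIN1 (−1.73, SE 0.31, adjusted p = 0.00368) were lower. PIR was also lower in sh8 (−0.84, adjusted p = 0.0254) and lower in sh4 than in sh8 (−1.02, adjusted p = 0.00883). The list medians were −0.42 in sh4, −0.47 in sh8 and −0.05 between the hairpins. In sh4, ELK3, RPS6KA1, NR4A2, TIMP1, HMGA1, SLC7A11, PIR and OSGIN1 kept their call in all 17 alternatives, which is 8 of the 17 named genes of these lists that passed. The other 9 lost it without the first or the second sh4 library (adjusted p 0.0531 to 0.205), and 6 of them (MAP2K2, MAP2K4, NR4A3, SGK1, TGFB1 and ZFP36) also without 1 of the shlacZ libraries. In sh8, NR4A2, CCN2, CCND1 and PIR each lost it without either sh8 library (adjusted p 0.0776 to 0.230) and without the third shlacZ library (0.0529 to 0.0806). CCND1 and PIR also lost it without the second shlacZ library, and NR4A2 and CCN2 without either sh4 library, which leaves fewer libraries for the estimate of the spread. Between the hairpins, all 8 named genes of the lists lost their call without the first sh8 library (0.0603 to 0.269).

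**Figure D4:**
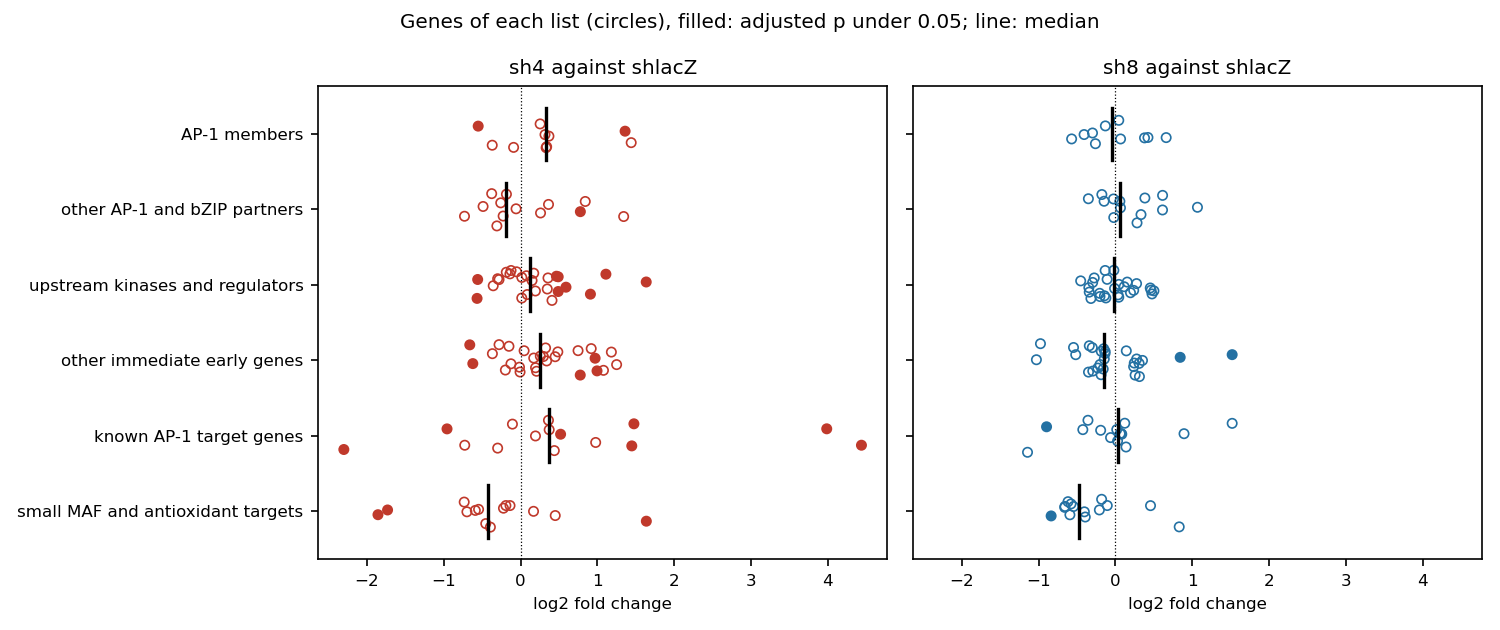
Log2 fold change (horizontal axis) of every tested gene of the 10 AP-1 genes and the 5 lists, in sh4 (left) and sh8 (right) against shlacZ, filled where the adjusted p was under 0.05, with a line at each median. In sh4 filled points lie on both sides of 0 in every list except that of the bZIP partners, and in sh8 few points are filled.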

How the data were processed

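RNA was taken from induced 501Mel pools (shlacZ n = 3, sh4 and sh8 n = 2 each). According to the study's methods, the authors collected RNA 3 days after induction with doxycycline, depleted ribosomal RNA, trimmed reads with Cutadapt, aligned them to hg38 with STAR, quantified genes with Salmon and passed counts to DESeq2. Versions are not given in the sources used here. The authors deposited normalized counts and not raw counts, that is, counts divided by 1 size factor per library. Of these values 100% were whole reads within 0.01, which gave the depth. A change shared by most genes would be scaled away.

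Genes with a mean of at least 10 (15420 of 21305) were tested on log2(value + 1) with limma 3.58.1 in R 4.3.3, with a variance trend and 3 groups in a single fit, or 2 levels for both hairpins together, two-sided and Benjamini-Hochberg adjusted. Log2 fold changes are on this scale, which understates low genes. The code was tested on simulated data. Gene models came from GENCODE on hg38. Labels do not say that replicates are separate cultures, so p-values measure only the spread between these libraries, which may be technical. The genes and lists were chosen with earlier results of these data known, from general knowledge. Genes of a list were named when they passed, had a mean of at least 50 and were among the 3 largest changes per direction. For FOSL1 and JUN, the 5 most similar genes were named. Alternatives covered the pseudocount, the minimum mean, scaling, the variance trend, the replicate block, the libraries in the fit, limma-voom, and leaving out each library. One gene each of the AP-1 target list and the leukocyte markers is counted but not reported here.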

Additional observations from a re-analysis of the deposited data

Results flagged for a closer look

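JUNB in the first sh8 library (298) stood apart from the other 3 knockdown libraries (464 to 478), with a gap of 0.925 of the whole range, past the 95% critical value of Dixon's test for 4 samples. Of 11 genes examined in this way, it was the only one past that value, which chance exceeds in about 1 group in 20. This group pools both hairpins, and control libraries of JUNB were as low as 295.

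The remaining results are differences between sh4 and sh8 that passed limma's test at an adjusted p under 0.05. MAFF was lower in sh4 than in sh8 (log2 difference −0.62), as were BACH2 (−0.99) and PIR (−1.02). Higher in sh4 were CSRNP1 (2.28), TIMP1 (1.41), RPS6KA1 (1.04), CCND1 (0.79), ELK3 (0.64) and PPP1R15A (0.63). Both hairpins target GRASLND, whose level did not differ between them by the test (−0.34, interval −0.84 to 0.16, adjusted p = 0.421). Its fall from the control passed the test in sh4 and not in sh8. The part of the GRASLND level in these differences was not tested.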

How the results depend on the processing

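No result that passed its test reversed its direction in any alternative. Of the 40 differences of the AP-1 genes, 9 took both signs over the alternatives, and none of these 9 passed in any of them. Among them were JUN in sh4 (−0.22 to 0.03), JUNB in sh8 (−0.29 to 0.38), FOSB in sh8 (−0.71 to 0.13) and FOSL1 in sh8 (−0.31 to 0.02). The count of genes passing moved by more than 1.5 times in these settings. With no variance trend, 138 genes passed for both hairpins together (711 in the fit reported), 59 for sh8 (451) and 476 for sh4 against sh8 (1079), and 0 of the AP-1 genes between the hairpins (1). With only the libraries of 2 groups, 299 genes passed for sh8, and 2 AP-1 genes (FOSB and MAFF) between the hairpins. Leaving out 1 library at a time gave 66 to 1189 genes for both hairpins, 144 to 1979 for sh4 against sh8, 1407 to 4867 for sh4 and 52 to 1597 for sh8. For the AP-1 genes it gave 0 to 4 in sh4, 0 to 3 between the hairpins, 0 to 1 for both together and 0 in sh8. The highest count in sh4, in sh8 and between the hairpins came without the first shlacZ library, and FOS, FOSB, FOSL2 and MAFF then passed in sh4. GRASLND in sh4 ranged from −1.23 to −0.82, weakest without the second sh4 library. Where a hairpin keeps 1 library, it is assumed to vary like the other groups. The causes of these moves were not tested.

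The difference between the first and second library of a group was correlated between groups over 15420 genes. This gave 0.31 for shlacZ and sh4, 0.03 for shlacZ and sh8, and 0.03 for sh4 and sh8. These values were not tested and do not settle whether same-numbered libraries were paired. The fits reported above treat the libraries as unpaired. With the replicate block, 42 genes passed for both hairpins together, and 3 AP-1 genes between the hairpins (FOS, FOSB and MAFF). In sh4 FOSB and FOSL2 then passed and MAFF did not (adjusted p = 0.0502).

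Over all named genes and alternatives, 437 values kept their call and 107 kept their direction but lost it. The planned edgeR and DESeq2 tests were not run, and limma-voom was the only test run on the recovered whole reads. With 2 libraries per hairpin and 10 to 25 reads for FOSL1 and BATF3, small changes of these genes could not be detected.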
